A study of Mus musculus with 12 samples.

Results

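The minor spliceosome RNAs and proteins examined here are 10 genes: the U11 and U12 small nuclear RNA (snRNA) genes Rnu11 and Rnu12, and 8 protein genes, Snrnp25, Snrnp35, Snrnp48, Pdcd7, Rnpc3, Zcrb1, Zmat5 and Zrsr2. They were chosen by symbol among the 54735 gene symbols of the expression tables. All 10 were found, and all 10 had a mean of at least 1 TPM over the 12 libraries, the level required for testing, which 11764 genes reached. TPM is a transcript abundance divided by gene length and scaled so that each library sums to 1000000.

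The RNA came from the pallium, the dorsal telencephalon that gives rise to the cortex, of C57/Bl6 mouse embryos at E13.5, with 4 embryos of each of 3 genotypes. Control embryos were Rnu11wt/flx::Trp53wt/wt, Rnu11 cKO embryos were Rnu11flx/flx::Trp53wt/wt, and double mutants (dKO) were Rnu11flx/flx::Trp53flx/flx. All 12 embryos carried Emx1-Cre, so the controls also carried 1 floxed Rnu11 allele together with the recombinase. Emx1-Cre is active in pallial progenitors and their descendants, and not in the microglia, vessels and blood of the same tissue. By genotype, cKO embryos differ from controls in Rnu11 only, and dKO embryos differ from cKO embryos in Trp53 only. Between dKO and control both genes differ. No group lost Trp53 alone, so the part of each deletion in a dKO difference from control was not tested. Nothing in the labels says that the embryos came from separate litters, so p-values measure the spread between these samples.

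The minor spliceosome removes a rare class of introns that have their own 5′ splice site and branch site sequences. The U11 snRNA pairs with the minor 5′ splice site and the U12 snRNA pairs with the branch site, and both enter the intron together as the U11/U12 di-snRNP, a joint particle of both RNAs and their proteins. Snrnp25, Snrnp35, Snrnp48 and Pdcd7 encode proteins attached to U11, and Snrnp48 contacts the 5′ splice site. Rnpc3 encodes the protein that binds U12 and bridges it to U11 through Pdcd7. Zcrb1 and Zmat5 encode further di-snRNP proteins, and Zrsr2 encodes the factor that reads the 3′ splice site. Snrnp48 and Rnpc3 are known to carry a feedback element in their own pre-mRNA, a tandem pair of minor 5′ splice sites. When U11 particles bind the pair, the transcripts are steered to forms that are degraded or kept in the nucleus.

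Both U11 and U12 are shown whole, because the results compare them, with the stretch that pairs with an intron in capitals. The sequences are those of GENCODE release M21 on GRCm38, the build also named mm10, which the submitters' processing notes name. They are written as DNA, 5′ to 3′.
Rnu11 RNA: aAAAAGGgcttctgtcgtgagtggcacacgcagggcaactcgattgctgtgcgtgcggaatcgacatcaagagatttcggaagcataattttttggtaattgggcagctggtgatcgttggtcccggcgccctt
Rnu12 RNA: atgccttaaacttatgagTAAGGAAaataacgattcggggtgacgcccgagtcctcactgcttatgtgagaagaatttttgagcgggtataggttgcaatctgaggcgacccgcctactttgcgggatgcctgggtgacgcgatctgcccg
The U11 gene is 134 bases long at chr4:132270080-132270213 on the minus strand, and its bases 2 to 7 are the exact complement of CCTTTT, which covers the end of the minor 5′ splice site. The U12 gene is 151 bases long at chr15:83149644-83149794 on the plus strand, and its bases 19 to 25 are the exact complement of TTCCTTA, the core of the minor branch site.

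The tandem elements of Snrnp48 and Rnpc3 are shown because these proteins are the ones known to be regulated through them. The motif searched was the start of a minor intron at its 5′ splice site, ATATCCTT or GTATCCTT, given in capitals. The motif and window were chosen with the expression values known.
Snrnp48 element: caGTATCCTTtttgcaaatgATATCCTTtt
Rnpc3 element: gtGTATCCTTtcttGTATCCTTtt
The Snrnp48 element lies at chr13:38214666-38214695 on the plus strand, within an intron of the 2 protein-coding transcripts and inside 1 annotated retained-intron transcript, and its copies start 18 bases apart. The Rnpc3 element lies at chr3:113607235-113607258 on the minus strand, in the 3′ UTR of 3 of the 4 protein-coding transcripts, and its copies start 12 bases apart. In both elements the last copy is followed by tt, which gives CCTTTT. The capitals in U11 mark the longest stretch near its start that is complementary to both elements, so this match was fixed by that choice. At least 1 copy of the motif occurred on the RNA strand of annotated transcripts of 2507 of 21877 genes with a protein-coding transcript (11.5%). A pair of copies within 30 bases occurred in 4 of these genes (0.0183%), namely Snrnp48, Rnpc3, Slc8a1 and Vmn2r17, and on the opposite strand in 6 (0.0274%). Introns outside annotated transcripts were not searched, copies do not overlap each other, and a match describes the letters only. Among the members, the pair was found in 2 of 8 protein genes, and of the other 6 none had a single copy in an annotated transcript.

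U11 itself was lower in every mutant embryo, at 22.6% of the control mean in cKO and 25.6% in dKO. Rnu11 stood at 674, 521, 724 and 643 TPM in the control embryos, at 159, 145, 115 and 158 TPM in the cKO embryos, and at 145, 142, 169 and 199 TPM in the dKO embryos. No mutant embryo came near the lowest control, and the mutant genotypes overlapped each other. The difference in log2(TPM + 1) was -2.14 ± 0.147 (SE, n = 4 each; limma adjusted p = 2.99e-06) between cKO and control and -1.96 ± 0.147 (limma adjusted p = 2.06e-05) between dKO and control. By exact permutation (two-sided) p was 0.0286 in both comparisons, the smallest value that 4 embryos against 4 allow. Among the 11764 genes tested, Rnu11 ranked 16 from the lowest change in cKO and 20 in dKO. Between the mutants the difference was 0.18, with a 95% interval from -0.14 to 0.50 (limma adjusted p = 0.337). After median-shift centring, described below, it was 0.45 (adjusted p = 0.0763). The centred differences from control were -2.39 in cKO and -1.94 in dKO. In bulk tissue, fewer cells with U11 and less U11 per cell cannot be told apart.

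The deleted Trp53 gene served as a check of the labels. Trp53, which encodes p53, averaged 1.22 ± 0.252 TPM (SD, n = 4) in the dKO embryos, against 3.82 ± 1.73 in the controls and 4.24 ± 0.404 in the cKO embryos, and every dKO embryo lay below every embryo of the other genotypes.

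Rnu12, the partner RNA of U11, showed no such fall. Its values were 7.41, 7.73, 8.65 and 12.6 TPM in control, 11.1, 9.17, 3.94 and 11.7 TPM in cKO, and 12.1, 8.77, 17.1 and 7.52 TPM in dKO. The 3 genotypes overlapped, with the lowest value in cKO replicate 3 and the highest in dKO replicate 3. The difference was -0.08 (95% interval -0.74 to 0.57, limma adjusted p = 0.835) between cKO and control and 0.26 (-0.40 to 0.92, adjusted p = 0.704) between dKO and control. Both intervals include 0 and are the widest among the members, so a moderate change of Rnu12 in either direction was not detectable here. Rnu12 has annotated near copies, and how shared reads were assigned is not given, so the TPM of Rnu12 is uncertain. Whether any copy makes U12 was not tested. Among these copies, Gm25703 averaged 0.254 TPM and Gm23502 stood at 0 in every library. Gm24525, an annotated snRNA gene, is 96% identical to Rnu12 over its 151 bases, and shares 74 of the 136 stretches of 16 bases. Its TPM averaged 12.8 and ran from 2.19 to 49.2, with the 2 highest values in cKO replicate 3 and control replicate 4. Rnu12 and Gm24525, both 151 bases long, had the same TPM in control replicate 3 (8.65) and in dKO replicate 4 (7.52). Equal values at the same length can come from small read counts. Rnu12, and any ratio to it, may therefore rest on few reads per library. The 4 annotated copies of Rnu11 stood at 0 in every library.

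The U11 to U12 ratio, taken within each library, does not move with a scaling shared by its genes. Rnu11 was 90.9, 67.5, 83.8 and 50.9 times Rnu12 in the control embryos. The ratio was 14.4, 15.8, 29.3 and 13.6 in the cKO embryos and 11.97, 16.2, 9.90 and 26.4 in the dKO embryos. Every mutant ratio lay below every control ratio, as the plot of this ratio by embryo shows. On the log2 scale, with 1 TPM added to each RNA, the cKO embryos differed from control by -2.06 and the dKO embryos by -2.22 (exact two-sided permutation p = 0.0286 each, 0.0429 after Benjamini-Hochberg adjustment over 3 tests). Between the mutants it was -0.16 (exact permutation p = 0.629). With Gm24525 added to Rnu12, an alternative chosen after seeing the data, the cKO difference against control was -2.45 (exact permutation p = 0.0286). The dKO difference against control was then -1.76 (exact permutation p = 0.0857) and the difference between the mutants was 0.68 (exact permutation p = 0.257).

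**Figure D1:**
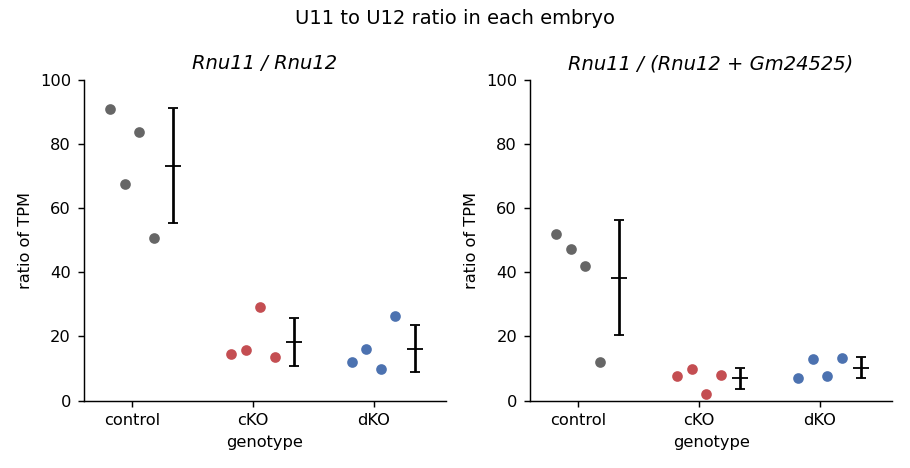
Ratio of Rnu11 to Rnu12 TPM (left) and of Rnu11 to the sum of Rnu12 and its near copy Gm24525 (right), by genotype, with 1 point per embryo and the mean and SD (n = 4) beside each group. On the left the control embryos sit between 50.9 and 90.9 and the mutants at 29.3 or below. On the right 1 control embryo stands at 12.2, within the range of the dKO embryos and above every cKO embryo.

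A noncoding gene on the other strand of Rnu11 was also lower than control in both mutants. Gm28872, annotated as a long intergenic noncoding RNA, covers all 134 bases of Rnu11 on the opposite strand. It stood at 183, 188, 227 and 164 TPM in control, at 47.0, 47.5, 85.4 and 68.5 TPM in cKO and at 16.4, 28.9, 35.8 and 61.8 TPM in dKO. Neither mutant group overlapped the controls. The difference was -1.64 ± 0.318 (SE, limma adjusted p = 0.00355) in cKO and -2.52 ± 0.318 (limma adjusted p = 0.00102) in dKO. Between the mutants it was -0.89 (limma adjusted p = 0.0432), and -0.62 after centring (adjusted p = 0.279). That of Rnu11 was 0.18 as deposited (limma adjusted p = 0.337) and 0.45 after centring (adjusted p = 0.0763). This call of Gm28872 between the mutants held in 5 of 19 other fits. The libraries were stranded, but whether the counting used strand is not given in the sources used here, so the RNAs of both genes cannot be told apart. Of the genes next to Rnu11, Gm28874 was near 0 in all libraries, and Taf12, a subunit of a general transcription complex, stood at 4.06 ± 0.341, 5.50 ± 1.16 and 4.66 ± 0.322 TPM in control, cKO and dKO (SD, n = 4 each). Beside Rnu12, Poldip3 starts 259 bases away and stood at 17.5 ± 2.65, 20.6 ± 4.40 and 19.1 ± 1.42 TPM, and Cyb5r3 at 13.003 ± 2.25, 17.99 ± 2.98 and 14.5 ± 1.44 TPM.

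The protein genes have to be read against a shift shared by most genes. The median log2 difference of all 11764 genes was 0.25 in cKO against control, -0.01 in dKO against control and -0.26 in dKO against cKO. As deposited, limma called 34.3% of genes higher and 1.09% lower in cKO against control. After median-shift centring, which moves each library by its median difference from the mean library, the shares were 3.72% and 2.96%. For dKO against control they were 1.79% higher and 3.4% lower as deposited and 3.74% and 4.69% after centring. For dKO against cKO they were 0.612% and 38.8% as deposited and 2.1% and 3.83% after centring. Nuclear protein-coding genes held 12.7% to 17.9% of a library's TPM, while the structural RNA genes Rn7s2 and Rn7sk held 28.2% to 35.4% and 14.6% to 18.9%. Each protein gene is therefore given as deposited and after centring.

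**Figure D2:**
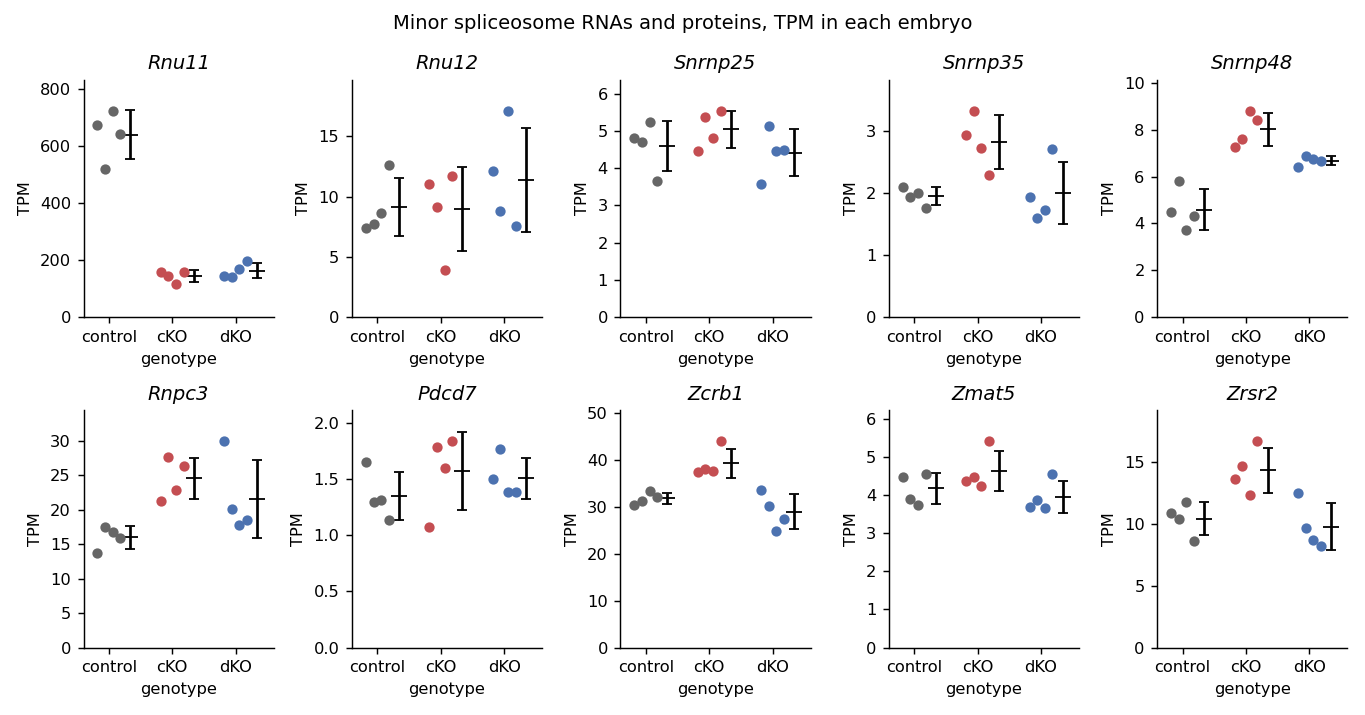
TPM (axis from 0) of the 10 genes in each embryo by genotype, with 1 point per embryo and the mean and SD (n = 4) beside each group. Rnu11 drops from 521 to 724 TPM in control to 199 or below in the mutants, and Snrnp48 lies at 6.42 or above in every mutant embryo and at 5.83 or below in every control.

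Among the proteins of the U11 particle, Snrnp48 rose in both mutants. Snrnp48, on chromosome 13 from 38204938 to 38227665, stood at 4.50, 5.83, 3.74 and 4.32 TPM in control, at 7.29, 7.59, 8.81 and 8.42 TPM in cKO and at 6.42, 6.90, 6.74 and 6.65 TPM in dKO. All 8 mutant embryos lay above all controls, and all cKO embryos above all dKO embryos. The mean was 1.75-fold the control in cKO and 1.45-fold in dKO. In cKO the log2 difference was 0.70 ± 0.103 (SE, limma adjusted p = 0.000871), and 0.45 after centring (adjusted p = 0.0373). In dKO it was 0.47 ± 0.103 (limma adjusted p = 0.0210), and 0.49 after centring (adjusted p = 0.0244). The dKO call did not hold in a fit of these groups alone (adjusted p = 0.0512), with all genes tested (0.0506), or without control replicate 3 (0.0663), control replicate 4 (0.0687), dKO replicate 3 (0.0538) or dKO replicate 4 (0.0503). Between the mutants the difference was -0.23 (limma adjusted p = 0.0897) as deposited and 0.04 after centring, and without control replicate 2, which enters that contrast through the shared spread, the adjusted p was 0.0394.

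Snrnp35, a U11 protein that resembles a U1 protein of the major spliceosome, was called higher in cKO as deposited but not after centring. On chromosome 5 from 124483134 to 124491124, it stood at 2.097, 1.93, 2.00 and 1.76 TPM in control and at 2.94, 3.32, 2.73 and 2.29 TPM in cKO. The dKO embryos stood at 1.94, 1.60, 1.72 and 2.72 TPM, with replicate 1 within the control range, replicates 2 and 3 below it and replicate 4 above it. Every cKO embryo was above every control, and the difference of 0.37 ± 0.117 (SE, limma adjusted p = 0.0308) was called as deposited. After centring it was 0.12 (adjusted p = 0.682). The call was also lost without control replicate 2 (0.0656), 3 (0.0559) or 4 (0.0763) or cKO replicate 1 (0.0549) or 2 (0.0918). The dKO embryos differed from control by 0.01 (95% interval -0.24 to 0.26). They differed from cKO by -0.36 (limma adjusted p = 0.0303), and by -0.09 after centring (adjusted p = 0.737), a call also lost without cKO replicate 1 (0.0560) or 2 (0.0916) or dKO replicate 1 (0.0567), 2 (0.0745) or 3 (0.0740).

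Snrnp25 and Pdcd7, which encode the other U11 proteins, passed the test in no comparison. Snrnp25, on chromosome 11 from 32205415 to 32208984, ranged from 3.65 to 5.23 TPM in control, 4.47 to 5.54 in cKO and 3.59 to 5.13 in dKO. Its difference from control was 0.11 (95% interval -0.13 to 0.36) in cKO and -0.05 (-0.29 to 0.19) in dKO. Pdcd7, on chromosome 9 from 65346104 to 65359643, is the U11 protein through which Rnpc3 is held. It ranged from 1.13 to 1.65 TPM in control, 1.07 to 1.83 in cKO and 1.38 to 1.76 in dKO, with differences from control of 0.12 (-0.12 to 0.37) and 0.10 (-0.15 to 0.34). In cKO the sign of both genes turned after centring, to -0.13 and -0.12.

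Rnpc3, the bridge between U11 and U12, was above control in all 8 mutant embryos but passed the test only in cKO as deposited. On chromosome 3 from 113605067 to 113630149, Rnpc3 stood at 13.6, 17.5, 16.7 and 15.9 TPM in control, at 21.3, 27.7, 22.8 and 26.3 TPM in cKO and at 29.9, 20.1, 17.7 and 18.4 TPM in dKO. The cKO group was clear of control, while dKO ran from just above the highest control to the highest value of all libraries in replicate 1. The mean was 1.54-fold the control in cKO, with a log2 difference of 0.59 ± 0.152 (SE, limma adjusted p = 0.0131), and 0.34 after centring (adjusted p = 0.225). In dKO the mean was 1.35-fold, with a difference of 0.39 ± 0.152 (limma adjusted p = 0.176), and 0.40 after centring (adjusted p = 0.129). Without dKO replicate 1 that difference was 0.22 (adjusted p = 0.296), and dKO was then called lower than cKO by 0.37 on the log2 scale (adjusted p = 0.0301) against -0.20 with it (adjusted p = 0.288). Amy1, an amylase gene, shares 1633 bases with Rnpc3 on the same strand and stood between 0.188 and 0.969 TPM.

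Slc8a1, which encodes a sodium-calcium exchanger and was the only other tested gene with the tandem motif, was named after its values were seen. Its difference in cKO was 0.61 (limma adjusted p = 0.00397), and 0.36 after centring (adjusted p = 0.166). In dKO it was -0.27 (limma adjusted p = 0.228), a sign opposite to that of Snrnp48 and Rnpc3.

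Zcrb1, a di-snRNP protein with an RNA recognition motif and a zinc knuckle, had the highest level of the protein members. On chromosome 15 from 93386097 to 93398334, Zcrb1 stood at 30.5, 31.3, 33.4 and 32.0 TPM in control, at 37.4, 38.1, 37.7 and 44.0 TPM in cKO and at 33.6, 30.2, 24.9 and 27.3 TPM in dKO. The cKO embryos lay above all others, and dKO overlapped control. The cKO difference of 0.30 ± 0.0976 (SE, limma adjusted p = 0.0352) was 0.05 after centring (adjusted p = 0.827). It was also lost without control replicate 1 (0.0668), 2 (0.0767), 3 (0.0508) or 4 (0.0676) or cKO replicate 2 (0.0674) or 4 (0.0900). The dKO embryos differed from cKO by -0.43 (limma adjusted p = 0.00604) as deposited and by -0.16 after centring (adjusted p = 0.306).

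Zrsr2, which acts at the 3′ splice site, followed the same course. On chromosome X from 163935443 to 163958661, Zrsr2 stood at 10.9, 10.4, 11.8 and 8.60 TPM in control, at 13.6, 14.6, 12.4 and 16.7 TPM in cKO and at 12.5, 9.64, 8.70 and 8.22 TPM in dKO. The cKO group did not overlap control, and dKO did, apart from its lowest and highest embryos. The cKO difference was 0.42 ± 0.133 (SE, limma adjusted p = 0.0296), and 0.17 after centring (adjusted p = 0.460), and the call was lost without control replicate 2 (0.0620) or 4 (0.0842) or cKO replicate 2 (0.0722) or 4 (0.0884). Between the mutants it was -0.52 (limma adjusted p = 0.0110), and -0.25 after centring (adjusted p = 0.247). Zrsr1, its retrogene, shares none of the 3818 stretches of 50 bases of Zrsr2.

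Zmat5, a zinc-finger protein of the di-snRNP on chromosome 11 from 4704678 to 4737669, passed the test in no comparison. It ranged from 3.75 to 4.56 TPM in control, 4.24 to 5.41 in cKO and 3.67 to 4.55 in dKO. The difference from control was 0.12 (95% interval -0.08 to 0.32) in cKO, which became -0.13 after centring, and -0.07 (-0.26 to 0.13) in dKO. Cabp7 overlaps 778 of its bases on the opposite strand and averaged under 1 TPM in each genotype.

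**Figure D3:**
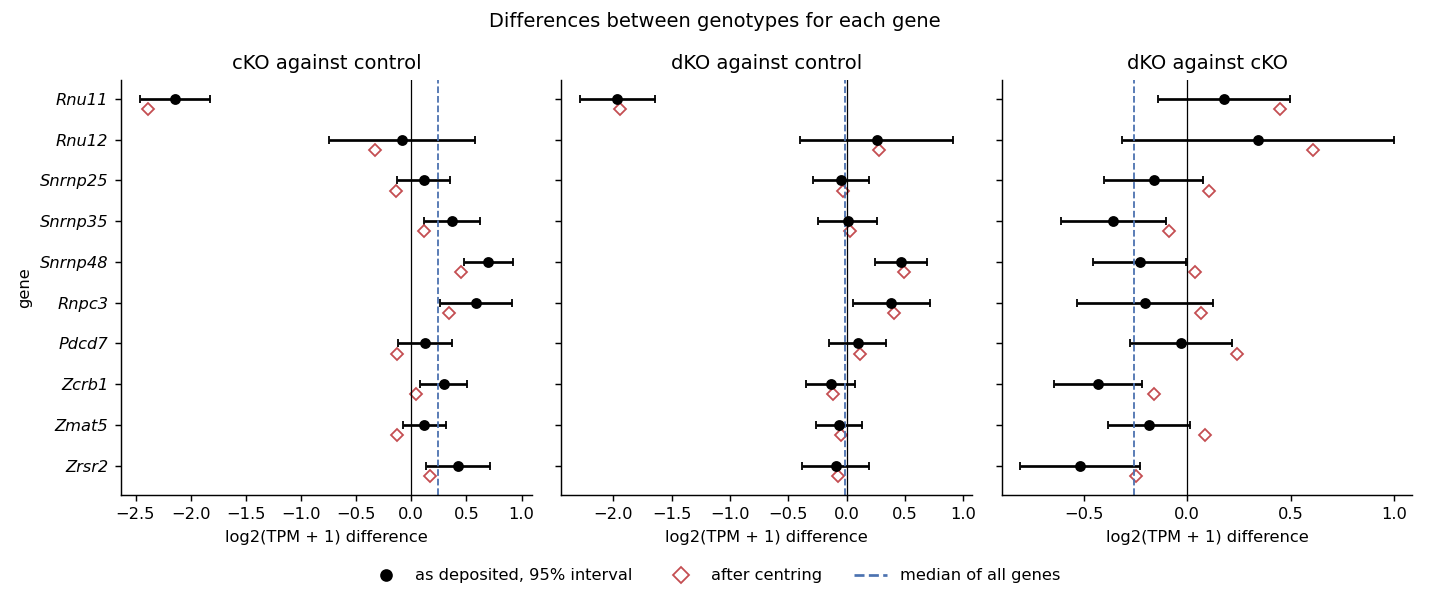
Difference in log2(TPM + 1) of each gene in the 3 comparisons: black points as deposited with the 95% interval, open diamonds after median-shift centring, and a dashed line at the median of all genes tested. Snrnp48 stays to the right of the dashed line in both mutants, at 0.70 and 0.47, and the points of Zcrb1 and Snrnp35 in cKO, at 0.30 and 0.37, lie near the line at 0.25.

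Counted over the 10 members, 5 were called higher and 1 lower in cKO against control, where 34.3% of all genes were called higher and 1.09% lower. After centring 1 was called higher (Snrnp48) and 1 lower (Rnu11), beside 3.72% and 2.96% of all genes. The median difference of the 8 protein genes was 0.33, and 0.08 after centring, beside 0.25 for all genes as deposited. In dKO against control 1 was called higher and 1 lower, both as deposited (5.19% of all genes called in either direction) and after centring (8.43%). In dKO against cKO 3 were called lower (Zcrb1, Zrsr2 and Snrnp35) where 38.8% of all genes were lower and 39.4% called in either direction. After centring limma called 0 of 10, with 2 higher and 0 lower in dKO at an unadjusted p under 0.05, beside 5.93% of all genes called. Groups did not overlap for 5 members higher and 1 lower in cKO against control (32.7% and 0.91% of all genes), and for 2 higher and 1 lower in dKO against control (5.14% and 8.44%). Between the mutants they did not overlap for Snrnp48 and Zcrb1, both lower in dKO (32.8% of all genes, and 33.2% in either direction).

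Compared per length, U11 was the most abundant member by far in all genotypes. In control the mean fell from 640.5 TPM for Rnu11 to 31.8 for Zcrb1, 15.97 for Rnpc3, 10.4 for Zrsr2 and 9.11 for Rnu12. Snrnp25 at 4.602, Snrnp48 at 4.596 and Zmat5 at 4.17 followed, then Snrnp35 at 1.95 and Pdcd7 at 1.35. Zrsr2 and Rnu12 overlapped in control, as did Snrnp25, Snrnp48 and Zmat5, so these neighbours have no order. Snrnp48 moved in this order: in both mutants its 4 embryos stood clear above those of Snrnp25, at 8.03 against 5.05 TPM in cKO and 6.68 against 4.42 TPM in dKO. Short structural RNAs are recovered unevenly by RNA-seq, so the place of Rnu11 and Rnu12 among the mRNAs is a description of these libraries.

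Of 11 other symbols written down for the minor spliceosome, 6 were tested. As deposited 2 were called higher in cKO (34.3% of all genes) and 1 in dKO (1.79%) against control. Between the mutants 2 were called lower in dKO (38.8%). After centring 1 was called, Ccdc84, higher in each comparison with control (3.72% and 3.74% of all genes). Ccdc84, also named CENATAC, encodes a protein of the U4atac/U6atac.U5 tri-snRNP, the particle that joins after U11 and U12. It stood at 3.79, 2.88, 3.13 and 3.03 TPM in control, at 6.97, 6.92, 6.35 and 8.71 TPM in cKO and at 7.38, 5.87, 5.56 and 4.37 TPM in dKO. All mutant embryos were above all controls. The mean was 2.26-fold the control in cKO, with a log2 difference of 0.97 ± 0.131 (SE, limma adjusted p = 0.000517), and 0.72 after centring (adjusted p = 0.00228). In dKO it was 1.81-fold, with 0.68 ± 0.131 (limma adjusted p = 0.0111), and 0.70 after centring (adjusted p = 0.00314). The Ccdc84 differences were called in all 19 other fits of each comparison with control. Rnu4atac and Rnu6atac, the other minor snRNA genes, were not matched by symbol and are not analysed here, and Armc7 and Txnl4b were below 1 TPM on average.

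The proteins shared with the major spliceosome were counted beside 34.3% of all genes called higher and 1.09% lower in the deposited cKO values, and 3.72% and 2.96% after centring. Of the 7 SF3b proteins, which bind the branch site in both spliceosomes, 1 was called higher in cKO as deposited and 0 after centring, with 0 at an unadjusted p under 0.05 in that fit. Of the 8 Sm proteins, which form the ring on U11 and U12, Snrpn was called higher, from 14.8 ± 1.03 TPM in control to 23.1 ± 1.97 in cKO (SD, n = 4 each; log2 difference 0.61, limma adjusted p = 0.000987), with 0.36 after centring (adjusted p = 0.0151). In dKO Snrpn stood at 15.1 ± 1.54 TPM, and its difference from cKO was called (-0.58, limma adjusted p = 0.00103). Snrpn is known to be made mainly in neurons, and 7 of 10 cortical neuron markers tested were also called higher in cKO as deposited, 1 after centring; their part in the Snrpn difference was not tested. Of the 23 U4, U5 and U6 proteins, 6 were called higher and 1 lower in cKO, and only the lower one, Lsm5 of the U6 ring, was called after centring. Lsm5 stood at 36.5 ± 2.93 TPM in control and 22.5 ± 6.27 in cKO (log2 difference -0.70, limma adjusted p = 0.0216), a call lost without control replicate 2 (0.0502), control replicate 3 (0.0547) or cKO replicate 2 (0.0510).

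In dKO, 4 of those 23 proteins were called higher than control, both as deposited (1.79% of all genes) and after centring (3.74%), and limma called 0 lower (unadjusted p under 0.05: 5 higher and 0 lower as deposited). Their median difference was 0.15, beside -0.01 for all genes. Snrnp200, the helicase that unwinds U4 from U6, was at 10.02, 7.36, 8.56 and 9.45 TPM in control and at 13.2, 16.4, 18.3 and 15.7 TPM in dKO, with no overlap. Its log2 difference was 0.78 ± 0.119 (SE, limma adjusted p = 0.00279). Prpf8, the U5 protein at the catalytic centre, differed by 0.65 (limma adjusted p = 0.0315), and Prpf3, a U4/U6 protein, by 0.69 (limma adjusted p = 0.0310), with 1 dKO embryo within the control range. The fourth was Txnl4a, a small U5 protein (0.44, limma adjusted p = 0.0137), named after its values were seen to complete the count. The Prpf8 call was lost without control replicate 2 (0.0886), 3 (0.0936) or 4 (0.0750) or dKO replicate 2 (0.0723) or 3 (0.0852). The Prpf3 call was lost without control replicate 2 (0.0834), 3 (0.0935) or 4 (0.0861) or dKO replicate 1 (0.0680) or 2 (0.0532). Prpf8 and Prpf3 also lost their calls with all genes tested (0.0826 and 0.0812) and in a fit of these groups alone (0.0691 and 0.0768). The same held with a replicate block (0.0916 and 0.0544). Prpf8 was also called higher in cKO as deposited (0.50, limma adjusted p = 0.0293), but not after centring (0.25, adjusted p = 0.300). In the cKO embryos Snrnp200 stood at 12.4, 13.2, 11.8 and 15.3 TPM, also clear of control, and the cKO difference was called as deposited (0.52, limma adjusted p = 0.00738) but not after centring (0.27, adjusted p = 0.0920).

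Of 34 genes for snRNA transcription and particle assembly, 6 were called higher in cKO as deposited, where 34.3% of all genes were, and their median difference was 0.14 beside 0.25 for all genes. After centring limma called 0, with 2 higher and 8 lower at an unadjusted p under 0.05, beside 6.68% of all genes called. In dKO against control 1 of the 34 was called higher and 0 lower, where 1.79% and 3.4% of all genes were. After centring 2 were called higher and 1 lower, where 3.74% and 4.69% of all genes were. The gene called as deposited was Coil, which encodes coilin, the scaffold of the Cajal bodies where snRNAs mature. It stood at 1.76, 1.63, 1.79 and 2.05 TPM in control and at 3.05, 2.497, 2.56 and 2.59 TPM in dKO. The difference was 0.39 ± 0.0802 (SE, limma adjusted p = 0.0149), and every cKO embryo (mean 2.06 ± 0.177 TPM, SD, n = 4) was below every dKO embryo. The difference of dKO from cKO was 0.26 (limma adjusted p = 0.0234), a call lost without cKO replicate 2 (0.0558) or dKO replicate 1 (0.0586). In that comparison 1 of the 34 genes was called higher and 11 lower, where 0.612% and 38.8% of all genes were. Among 15 other snRNA and structural RNA genes, 1 was called higher in dKO against control, where 1.79% of all genes were. Their median difference was 0.40, beside -0.01 for all genes. The gene called was Rnu1a1, a U1 gene, at 29.4 ± 9.62 TPM in control and 89.5 ± 12.1 in dKO (SD, n = 4 each, log2 difference 1.62, limma adjusted p = 0.0275). The cKO embryos averaged 67.1 ± 40.9 TPM, with a difference of 1.00 from control (limma adjusted p = 0.0557), and dKO differed from cKO by 0.62 (adjusted p = 0.200). Rnu1a1 belongs to a family of near-identical genes, so its level is uncertain. In dKO against cKO 2 of the 15 were called higher (0.612% of all genes), and 1 after centring (2.1%). The median difference of the 15 was 0.62, and 0.89 after centring, beside -0.26 and 0.01 for all genes. Rnu3a, called in both, stood at 60.6 ± 13.8 TPM in cKO and 94.3 ± 25.6 in dKO, with overlap (SD, n = 4 each, log2 difference 0.62, limma adjusted p = 0.0326).

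**Figure D4:**
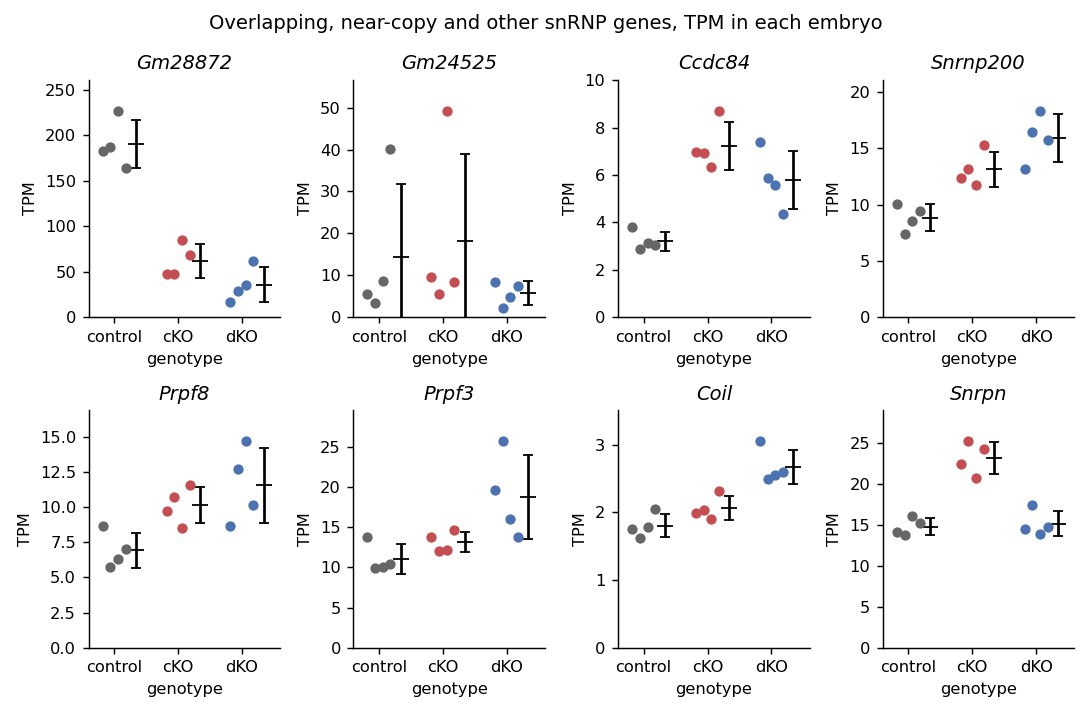
TPM (axis from 0) of Gm28872, which overlaps Rnu11, of Gm24525, the near copy of Rnu12, and of 6 other snRNP genes in each embryo, with the mean and SD (n = 4) beside each group and SD bars of Gm24525 cut off at 0. Ccdc84 lies at 3.79 TPM or below in control and at 4.37 or above in both mutants, and Gm24525 has 2 embryos at 40.2 and 49.2 far above the rest.

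The genes whose pair of differences from control lay closest to those of Rnu11 were Gm25099, an snRNA gene, Gm44346, a miRNA gene, and Gm22776, a snoRNA gene, at distances of 0.42, 0.54 and 0.54 on the log2 scale. They stood at 0 in 4, 8 and 10 of the 12 libraries. The closest to Rnpc3 were Tpm3-rs7, Kctd10 and Gm49223, at distances of 0.0033, 0.0089 and 0.011. These distances use 2 differences over 12 libraries that share the same controls.

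Markers of other cells moved in the cKO libraries, beside the protein genes above. The cKO counts below stand beside 34.3% of all genes called higher and 1.09% lower as deposited, and 3.72% and 2.96% after centring. The summed TPM of 9 microglia markers was 14.1 to 17.0 in control, 54.1 to 79.2 in cKO and 17.2 to 23.9 in dKO, and 8 of 9 were called higher in cKO, as deposited and after centring. The summed TPM of 9 vessel markers was 10.999 to 14.3, 22.04 to 29.1 and 14.3 to 22.2, and all 7 tested were called higher in cKO as deposited, 3 after centring. The 11 cortical neuron markers summed to 244 to 272 in control, 343 to 410 in cKO and 173 to 267 in dKO, with 7 of 10 tested called higher in cKO as deposited, 1 after centring. The 10 radial glia markers, which define the pallial progenitors, summed to 264 to 301, 310 to 366 and 284 to 292, and in cKO the deposited values gave 2 of 10 called higher and 1 lower, against 0 higher and 3 lower after centring (median log2 difference -0.01 and -0.26). The 6 intermediate progenitor markers summed to 37.8 to 53.9, 37.8 to 50.4 and 34.6 to 43.9, and in cKO 1 was called higher and 1 lower, against 0 higher and 3 lower after centring. The 9 red blood cell markers summed to 2051 to 3111, 2506 to 3469 and 2230 to 2857. The 9 markers of the ventral telencephalon summed to at most 2.47, 5.31 and 3.79, and 8 of them averaged under 1 TPM. No marker stood at 0 in all libraries. The part of these cells in the values of the spliceosome genes was not tested.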

How the data were processed

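RNA from the pallium of 12 mouse embryos was sequenced, per the labels' protocols as stranded total RNA on a NextSeq500. The deposited tables hold TPM per gene symbol, 1 per embryo; the unit was read from the values, which sum to 1000000. The submitters' processing notes name HISAT2 and mm10; the counting tool, the annotation, how shared reads were assigned and whether strand was used are not given in the sources used here. TPM does not state read counts, so no depth and no counting interval are given.

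Groups came from the genotype labels. On the log2(TPM + 1) scale, all 11764 genes that averaged 1 TPM or more were fitted by limma 3.58.1 (lmFit, eBayes with a trend; R version 4.3.3), with 1 fit for 3 groups and a Benjamini-Hochberg adjusted p under 0.05 over all genes as a call. A log2(TPM + 1) difference understates the change of low genes. Single values were also tested by exact two-sided permutation. The fit was tested on simulated data with known changes. The members, gene lists and tests were chosen with earlier results of these data known. Within a list, at most 3 genes a comparison were named, those with the largest change among genes called with the same sign as deposited and after centring, together with the genes next to or overlapping the members. Slc8a1, Vmn2r17 and Txnl4a were named outside this rule, after their values were seen. Positions, gene types and sequences are from GENCODE M21 (GRCm38). Gene types used for rescaling are from RefSeq.

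Alternatives were a pseudocount of 0.1, no filter, a mean of at least 5 TPM, median-shift centring, protein-coding rescaling (each library multiplied by 0.789 to 1.11 to give protein-coding genes the same total everywhere), fits of 2 groups, a replicate block and leaving out each embryo. Replicate libraries correlated at 0.951 to 0.971 across genes and none were identical. Plots were drawn with matplotlib 3.10.9.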

Additional observations from a re-analysis of the deposited data

Results flagged for a closer look

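Of 42 groups of 4 embryos examined for a value far from the other 3, 2 held one, where about 2.1 would occur by chance at 1 in 20. Zcrb1 in cKO replicate 4, at 44.0 TPM, lay above the other cKO embryos, which stood at 37.4 to 38.1 TPM. The Rnu11 to Rnu12 ratio in cKO replicate 3, at 29.3, lay above the other cKO embryos at 13.6 to 15.8; this embryo had the lowest Rnu12 value (3.94 TPM) and the highest value of the near copy Gm24525 (49.2 TPM).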

How the results depend on the processing

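The number of genes called in cKO against control, dKO against control and dKO against cKO was 4163, 610 and 4636 as deposited, 1900, 294 and 2220 with a mean of at least 5 TPM (fewer genes tested), 786, 992 and 698 after centring, and 865, 1071 and 1012 after protein-coding rescaling. Leaving out 1 embryo gave 2468 to 4353, 333 to 705 and 3082 to 4851; the lowest counts came without control replicate 2 (2675), cKO replicate 2 (2468) or cKO replicate 4 (2526) in the first, without control replicate 3 (354) or 4 (333) in the second, and without cKO replicate 2 (3082) or 4 (3089) in the third. The members called were 6, 2 and 3; with no filter they were 3 and 1 against control, after centring and after rescaling 2 in cKO against control and 0 between the mutants, and in a fit of 2 groups 1 in dKO against control. Leaving out 1 embryo gave 3 to 6 members in cKO, with 3 without control replicate 2 or 4 or cKO replicate 2, and 1 to 2 in dKO, with 1 without control replicate 3 or 4 or dKO replicate 3 or 4. The causes were not tested.

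The Rnu11 calls against control held in all 17 other fits. The calls of Snrnp35, Zcrb1 and Zrsr2 in cKO were lost with no filter (adjusted p = 0.0632, 0.0594 and 0.0633). The log2 ratio of Rnu11 to Rnu12 kept its sign without each embryo, at -2.26 to -1.95 in cKO and -2.48 to -2.04 in dKO, where 3 against 4 embryos cannot go below an exact p of 0.0571; between the mutants it was -0.42 to 0.041. With Gm24525 summed it was -2.45 in cKO against control (exact permutation p = 0.0286). In dKO against control it was then -1.76 (exact permutation p = 0.0857), and between the mutants 0.68.

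Signs turned, with no call, after centring and after rescaling in cKO against control for Snrnp25 (-0.13, -0.083), Pdcd7 (-0.12, -0.018), Zmat5 (-0.13, -0.075), Trp53 (-0.070, -0.0099) and Coil (-0.12, -0.030), and after centring for Prpf3 (-0.0075). Between the mutants they turned for Snrnp25 (0.11, 0.038), Rnpc3 (0.065, 0.028), Pdcd7 (0.24, 0.12) and Zmat5 (0.084, 0.012), and after centring for Snrnp48 (0.038). Without 1 embryo the range crossed 0 for Rnu12 in cKO (-0.23 to 0.22), for Snrnp25 (-0.13 to 0.029), Snrnp35 (-0.099 to 0.072) and Snrpn (-0.034 to 0.068) in dKO, and for Pdcd7 between the mutants (-0.13 to 0.021). Trp53 was called higher in cKO without control replicate 1 (0.40, adjusted p = 0.0190).

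The values showed no pairing of the embryos by the replicate numbers of the titles. Same-numbered embryos correlated at -0.095 to 0.075 in their deviations from the group means, and other-numbered embryos at -0.16 to 0.14. Whether same-numbered embryos shared a litter or handling cannot be told from this. With the replicate block, 3 members were called in cKO and 1 in dKO against control, Snrnp48 in dKO had an adjusted p of 0.0552, and the Rnu11 to Rnu12 ratio differed by -2.06 and -2.22 with an exact p of 0.125, the smallest that 4 pairs allow. TPM keeps no depth, so the precision of the low genes, Pdcd7 and Snrnp35 among them, rests on the spread of 4 embryos alone.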
